A study of Mus musculus with 2 samples.

Results

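The genes described here encode the protein coats that shape transport vesicles and the adaptors that tie clathrin to membranes and cargo. A list of 45 such genes was matched by name to the arrays, and 44 of them, out of 18193 genes measured in all, had at least 1 probe set annotated to that symbol alone. Together they had 98 probe sets, and each gene took the value of its brightest probe set, the other probe sets serving as a check. Picalm, which encodes a clathrin assembly protein, is not analysed here. Cortical tissue came from naive male C57BL/6J mice aged 2.5 months, which were either WT or P4H-TM KO littermates lacking transmembrane prolyl 4-hydroxylase. RNA of 4 mice was pooled per genotype and hybridized to 1 Affymetrix mouse genome array per genotype, giving 2 arrays in all. No difference has a replicate check for this reason, and no p-value and no SD or SE between animals is given. A pool shows the average of its mice and nothing of their spread, and in whole cortex fewer cells of a type and less RNA per cell cannot be told apart. Values are log2 expression values, and a difference is P4H-TM KO minus WT on that scale, where 1 stands for 2-fold. Levels are not compared between genes, because probe sets differ in brightness. The study displayed several of these genes, Dab2 and Sh3d19 among them, as higher in P4H-TM KO on these same arrays, so their direction here is not independent evidence.

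COPII coats carry newly made proteins out of the endoplasmic reticulum (ER), and COPI coats carry proteins back to the ER and between Golgi cisternae. Clathrin forms a cage around vesicles that adaptor complexes select: AP-1 acts at the trans-Golgi network and endosomes, AP-2 at the plasma membrane and AP-3 on endosomes that feed lysosome-related organelles and some synaptic vesicles. In the brain, clathrin and AP-2 retrieve synaptic vesicle membrane after exocytosis, and the cortex is rich in neuron-specific adaptor forms.

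P4htm, the targeted gene, read 11.05 in WT against 9.10 in P4H-TM KO on the log2 scale, lower where the labels place the knockout, and differed by -1.64 on a dimmer probe set; the position of these probe sets relative to the inactivated part of the gene is not known here. Neuron markers were high and nearly equal on both arrays, with 8 of 8 measured and a mean log2 value of 12.30 in each. Of the markers for other cell types, those of the choroid plexus were higher in P4H-TM KO in 11 of 11 measured genes, and those of oligodendrocytes were lower in 7 of 7. All 44 coat and adaptor genes reached, as the mean of both arrays, the median signal over all probe sets, 6.385, which was the filter for the counts below and was passed by 11730 genes.

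The coat and adaptor genes differed little between the genotypes, apart from 2 adaptors. At least 1.2-fold higher values in P4H-TM KO were found for 2 of 44 genes, Dab2 and Sh3d19, which is 4.55% of them against 2.90% of all genes above the filter. None of the 44 was 1.2-fold lower, against 1.83% of all genes. Dab2 alone reached 1.5-fold, a size passed upward by 0.631% and downward by 0.0512% of all genes. The median difference was 0.035 over the 44 genes and 0.01 over all genes above the filter. Values within 1.1-fold of each other were found for 37 of the 44, or 84.1%, and for 79.3% of all genes. Of the other 7, 6 were at least 1.1-fold higher, where the share of all genes was 11.3%, and 1 was lower, where it was 9.42%. Higher values of any size were found for 26 genes and lower values for 17, with 1 equal, against 50.1% and 45.2% of all genes. With the arrays centred the count was 24 higher and 18 lower. With only probe sets that carry no mark for matching several transcripts, of the same gene or of others, it was 21 and 18 of 39. These shares lie near those of all genes, so they describe the list without setting it apart.

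**Figure D1:**
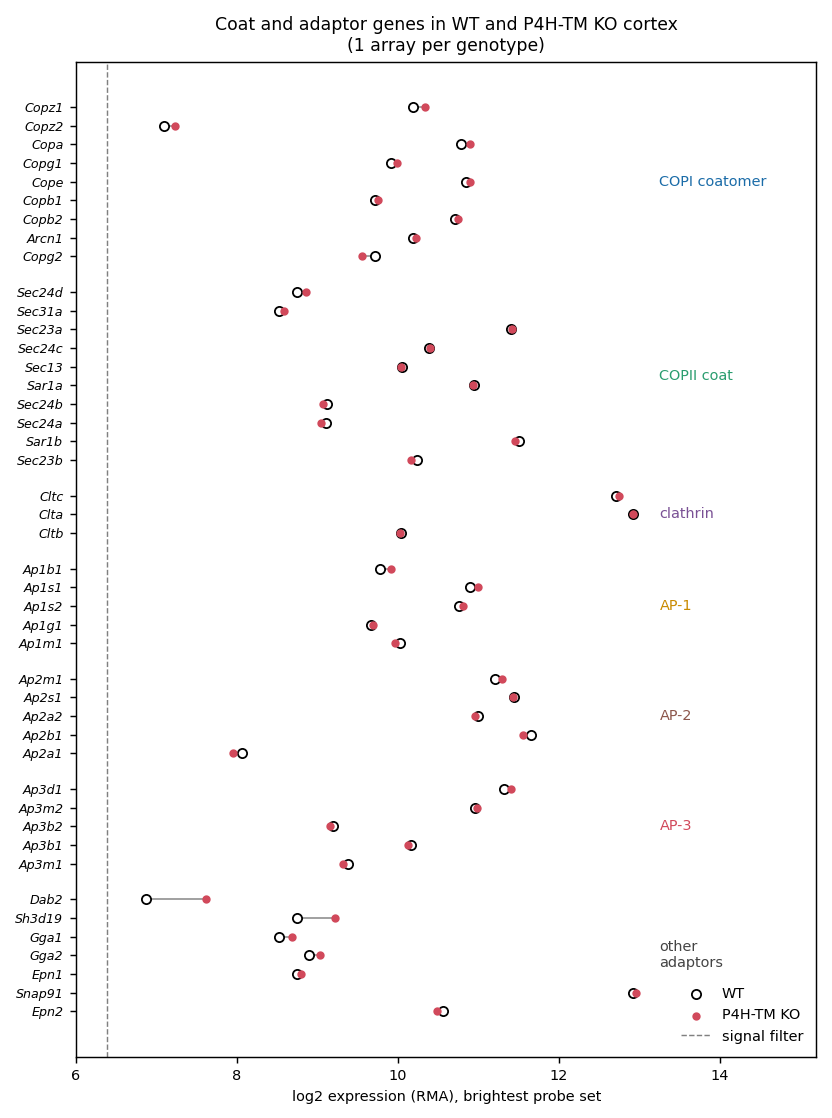
Log2 expression of each coat and adaptor gene on its brightest probe set on the WT array (open circles) and on the P4H-TM KO array (red points), ordered by complex and by difference, with a dashed line at the signal filter of 6.385. Error bars are absent because each genotype has 1 array; the circles of most genes overlap, and the widest gap belongs to Dab2, at 6.87 and 7.62.

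Probe sets of the same gene give the only measure of technical spread on these arrays. Pooled over 5101 genes, the SD of the difference between probe sets above the filter was 0.101, and 33 of the 44 coat and adaptor genes lay within that distance of 0, as did 69.9% of all genes above the filter. Over all probe sets, dim ones included, the pooled SD was 0.147 for 9010 genes and 0.189 for the 27 members with several. These spreads concern 1 pair of arrays and not mice. Of the 27 members with several probe sets, 8 had the same sign on all of them, and 17 members had 1 probe set only. The differences of the 74 member probe sets above the filter ran from -0.27 to 0.75, and those of the 24 dimmer ones from -0.26 to 0.53.

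**Figure D2:**
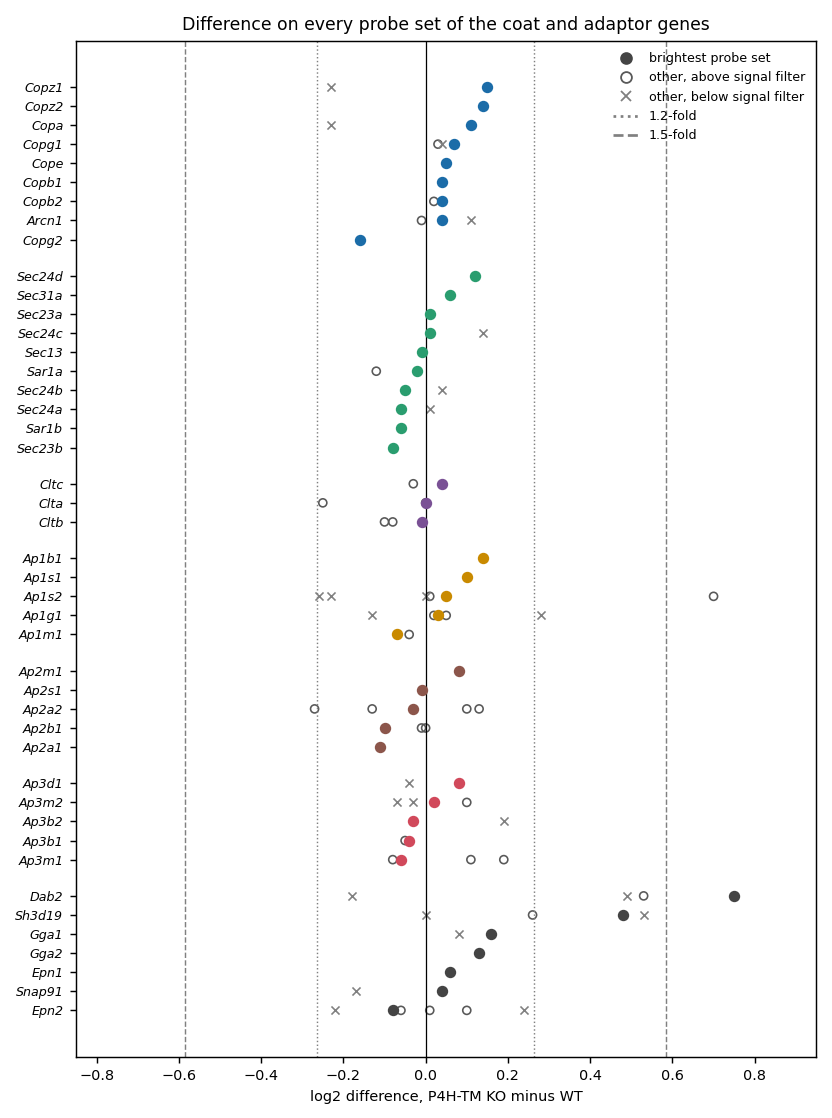
Log2 difference, P4H-TM KO minus WT, on every probe set of the coat and adaptor genes; filled points are the brightest probe sets, coloured by complex, open circles are other probe sets above the signal filter and crosses are those below it. Dotted and dashed lines mark 1.2-fold and 1.5-fold; 2 probe sets pass 1.5-fold, 1 of Dab2 at 0.75 and 1 of Ap1s2 at 0.70.

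In the COPI coatomer, a complex recruited whole to Golgi membranes, 8 of 9 genes had higher values in P4H-TM KO. Their median difference was 0.05, and no COPI gene reached 1.2-fold. Copz1, which encodes a zeta subunit, had 10.19 in WT against 10.34 in P4H-TM KO, a difference of 0.15. Copz2, its paralog, had 7.09 and 7.23, a difference of 0.14. The alpha subunit gene Copa had 10.78 and 10.89, a difference of 0.11. The lower gene was Copg2, which encodes a gamma subunit, at 9.71 and 9.55, a difference of -0.16. Its paralog Copg1 had 9.92 and 9.99, a difference of 0.07. These 2 gamma subunits thus stood on opposite sides of 0, by 0.23 in all. The genes for the beta, beta-prime, delta and epsilon subunits, Copb1, Copb2, Arcn1 and Cope, differed by 0.04 to 0.05. The pattern of COPI depended on probe sets, because dimmer ones of Copz1 and Copa each differed by -0.23. With all probe sets averaged, these genes had differences of -0.04 and -0.06, and 6 of 9 COPI genes were higher.

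Copz1 and Copz2 each hold a microRNA gene within their bounds, and the pair is of one family. The mature sequences are shown because both zeta subunit genes stood at the top of COPI and the microRNAs share their seed; the arrays did not measure these microRNAs. They are taken from RefSeq on GRCm38.p6, at chr15:103285185-103285206 and chr11:96850439-96850459, both on the plus strand, and the capitals mark the seed, bases 2 to 8.
mmu-miR-148b-3p, within Copz1: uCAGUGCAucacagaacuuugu
mmu-miR-152-3p, within Copz2: uCAGUGCAugacagaacuugg

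COPII genes were nearly equal between the arrays, with 4 of 10 higher and 6 lower in P4H-TM KO, a median difference of -0.015 and all 10 within 1.1-fold. The highest was Sec24d, which encodes a cargo-binding subunit of the inner coat, at 8.74 in WT against 8.86 in P4H-TM KO, a difference of 0.12. Sec31a, which encodes the outer cage together with Sec13, had 8.52 and 8.58, a difference of 0.06, and Sec13 one of -0.01. The lowest was Sec23b, a partner of the Sec24 proteins in the inner coat, at 10.24 and 10.16, a difference of -0.08. Sar1b, which encodes a GTPase that starts coat assembly, had 11.51 and 11.45, a difference of -0.06, and Sec24a had the same difference at 9.11 and 9.05. Sec23a, Sec24c, Sar1a and Sec24b lay between 0.01 and -0.05. With the arrays centred, Sec23a and Sec24c were at 0, which left 2 genes higher.

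The clathrin chains did not separate the arrays. The heavy chain gene Cltc had 12.71 in WT against 12.75 in P4H-TM KO, a difference of 0.04. The light chain gene Clta had 12.92 on both arrays, and Cltb, the other light chain, had 10.04 and 10.03. A dimmer probe set of Clta differed by -0.25, at 7.92 and 7.67, and those of Cltb by -0.08 and -0.10.

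AP-1, the adaptor of the trans-Golgi network, had 4 of 5 genes higher, with a median of 0.05. Ap1b1, which encodes its beta subunit, had 9.78 in WT against 9.92 in P4H-TM KO, a difference of 0.14. Ap1s1 and Ap1s2, which encode small sigma subunits, differed by 0.10 and 0.05, and Ap1g1, the gamma subunit gene, by 0.03. The medium chain gene Ap1m1 was lower, with 10.03 and 9.96. Ap1s2 had a probe set at odds with its others. The third brightest of 6 had 7.85 in WT against 8.55 in P4H-TM KO, a difference of 0.70. The brightest and the next differed by 0.05 and 0.01 at signals near 10.7. Where these probe sets lie in the transcripts of Ap1s2 is not given in the sources used here. A probe set at 1.5-fold in either direction was found for 2 members, Dab2 and Ap1s2, and for 1.05% of all genes above the filter.

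AP-2, the adaptor of endocytosis at the plasma membrane, had 4 of 5 genes lower, with a median of -0.03 and all within 1.1-fold. The alpha subunit gene Ap2a1 had 8.06 in WT against 7.95 in P4H-TM KO, a difference of -0.11. Ap2b1, which encodes the beta subunit, had 11.65 and 11.55, a difference of -0.10, but its dimmer probe sets differed by 0 and -0.01. Ap2m1, the gene of the medium chain that binds tyrosine-based sorting signals, was the higher one, at 11.21 and 11.29. Ap2a2 and Ap2s1 differed by -0.03 and -0.01, and the 5 probe sets of Ap2a2 ran from -0.27 to 0.13. AP-3 had 2 of 5 genes higher and a median of -0.03, which was 4 of 5 and 0.02 with probe sets averaged. Its delta subunit gene Ap3d1 had the highest difference, 0.08, from 11.32 to 11.40. Ap3m1, which encodes a medium chain, had the lowest, -0.06, with 0.11 and 0.19 on its dimmest probe sets. Ap3b2 and Ap3m2, the forms found mainly in neurons, differed by -0.03 and 0.02, and Ap3b1 by -0.04. In these complexes no gene left the range of -0.11 to 0.14 on its brightest probe set.

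The adaptors that act outside these complexes held both genes past 1.2-fold. Of 7 measured, 6 had higher values in P4H-TM KO. Their median difference was 0.13, or 0.06 without Dab2 and Sh3d19, a setting chosen after their values were seen. Dab2 encodes an endocytic adaptor that binds clathrin and receptors of the LDL receptor family. On its brightest probe set Dab2 had 6.87 in WT against 7.62 in P4H-TM KO, a difference of 0.75 or 1.68-fold. On the next it had 6.96 and 7.49, a difference of 0.53. On the third, below the filter, it had 4.89 and 5.38, a difference of 0.49. The dimmest probe set went the other way, at 4.68 and 4.50. So 3 of 4 probe sets of Dab2 were higher in P4H-TM KO, and both of those above the filter were.

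Sh3d19 encodes an SH3 domain protein that binds ADAM metalloproteases. Its brightest probe set had 8.74 in WT against 9.22 in P4H-TM KO, a difference of 0.48 or 1.39-fold. On the next it had 7.01 and 7.27, a difference of 0.26, and on the third, whose mean is below the filter, 5.91 and 6.44, a difference of 0.53. The dimmest had 4.62 on both arrays. So 3 of 4 probe sets of Sh3d19 were higher in P4H-TM KO, and both of those above the filter were. The suffix of the brightest Sh3d19 probe set marks that it can match other transcripts. The suffix of the brightest Dab2 probe set marks several transcripts of the same gene. Without either kind of marked probe set, the differences were 0.53 for Dab2 and 0.26 for Sh3d19, of which only the first passed 1.2-fold.

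Gga1 and Gga2, which encode adaptors that sort mannose 6-phosphate receptors at the trans-Golgi network, were the next highest of the 7. Gga1 had 8.52 in WT against 8.68 in P4H-TM KO, a difference of 0.16, and Gga2 had 8.90 and 9.03, a difference of 0.13. The epsin genes, whose products bend membrane and bind ubiquitinated cargo, went apart on their brightest probe sets, with 0.06 for Epn1 and -0.08 for Epn2. On its next brightest probe sets, however, Epn2 differed by 0.01 and 0.10. Snap91, which encodes the synaptic clathrin assembly protein AP180, had 12.92 and 12.96. The value on each side of 1.2-fold, a log2 difference of 0.263, was thus 0.48 for Sh3d19 and 0.16 for Gga1.

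Markers of other tissues were also higher on the P4H-TM KO array that gave the higher Dab2 and Sh3d19 values. Choroid plexus markers had a mean log2 value of 7.98 in WT against 9.49 in P4H-TM KO over 11 genes, with differences up to 2.21 for the potassium channel gene Kcnj13. Ttr, which encodes the thyroxine carrier transthyretin, had the lowest, 0.37, on a probe set that reads 14.49 and 14.86, close to the top of the arrays. Its other probe sets differed by 0.42 to 0.96. Meninges markers had means of 8.40 and 8.78 over 11 genes, of which 10 were higher, from -0.01 for Slc22a6 to 0.90 for the proteoglycan gene Dcn. Mural cell markers had means of 8.64 and 8.81 over 8 genes, of which 5 were higher, from -0.12 for Abcc9 to 0.63 for the smooth muscle actin gene Acta2. Endothelial markers had means of 8.50 and 8.63 over 7 genes, of which 5 were higher, led by the transporter gene Slco1c1 with 0.44. Microglia and macrophage markers had means of 8.81 and 8.84 over 9 genes, with 5 higher and 4 lower. They ran from -0.08 for Csf1r to 0.26 for Mrc1, a gene of border macrophages. Mrc1 read 6.27 in WT, below the filter, and 6.53 in P4H-TM KO. Astrocyte markers had means of 11.83 and 11.79, with 2 of 8 higher, from -0.22 for S100b to 0.04 for Aldoc. Oligodendrocyte markers had means of 12.22 and 11.96, from -0.34 for Opalin to -0.08 for Mbp, which is also close to the top of the arrays and ran from -0.19 to 0.25 over its probe sets. Neuron markers ran from -0.04 for Nefl to 0.03 for Slc17a7. The part of these tissues in the differences of Dab2 and Sh3d19 was not tested.

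**Figure D3:**
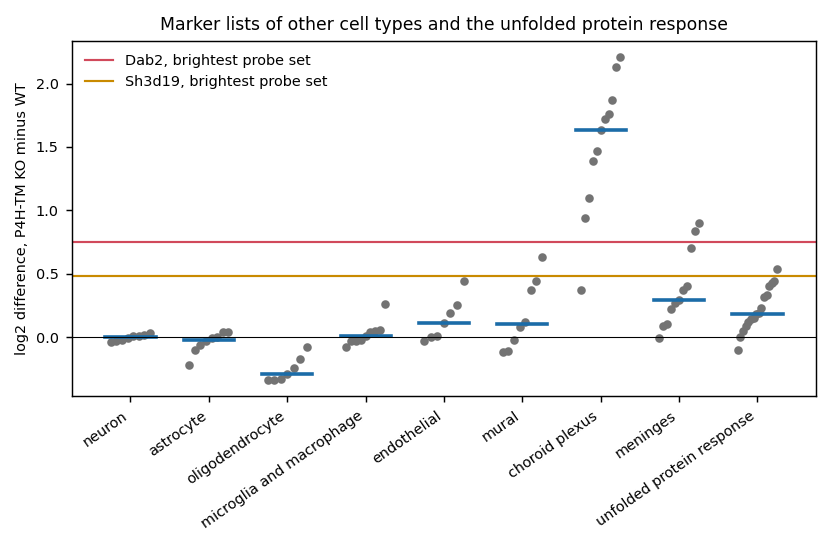
Log2 difference, P4H-TM KO minus WT, of each measured marker (grey points, brightest probe set) of the cell types named on the horizontal axis and of the unfolded protein response, with the median of each list as a blue bar. Horizontal lines mark Dab2 at 0.75 and Sh3d19 at 0.48; choroid plexus markers have a median of 1.63 and meninges markers one of 0.29, and there is 1 array per genotype.

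Several coat and adaptor proteins exist as paralogs, and 14 such pairs were measured. Both partners lay on the same side of 0 in 8 pairs and on opposite sides in 5, and 1 pair had a partner at 0. The closest pairs included Copz1 with Copz2, at 0.15 and 0.14, and Gga1 with Gga2, at 0.16 and 0.13. Sec24a and Sec24b had -0.06 and -0.05, and Ap3b1 and Ap3b2 had -0.04 and -0.03. The widest gaps were 0.24 between Ap1b1 and Ap2b1, the beta subunits of AP-1 and AP-2, at 0.14 and -0.10, and 0.23 between Copg1 and Copg2. Epn1 and Epn2 were 0.14 apart, and Sec24c and Sec24d 0.11. Apart from those 4 pairs, partners differed from each other by less than 0.10. That is within the pooled SD between probe sets above the filter, 0.101, and the pooled SD over all probe sets of members was larger, 0.189. The gaps with Ap2b1 and Epn2 depended on their brightest probe sets. Dimmer ones above the filter differed by 0 and -0.01 for Ap2b1 and by -0.06 to 0.10 for Epn2. The closeness of Copz1 with Copz2 and of Ap3b1 with Ap3b2 also depended on the brightest probe sets. Dimmer probe sets of Copz1 and Ap3b2, below the filter, differed by -0.23 and 0.19. With probe sets averaged, Copz1 had -0.04 and Ap3b2 had 0.08, each on the other side of 0 from its partner. Copg2 had 1 probe set only.

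**Figure D4:**
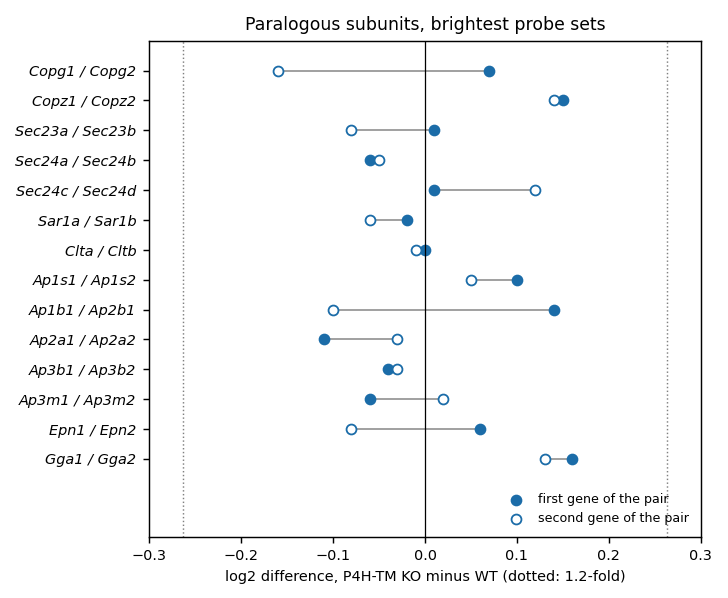
Log2 difference, P4H-TM KO minus WT, of the first (filled) and the second (open) gene of each paralog pair on their brightest probe sets, joined by a line, with dotted lines at 1.2-fold. There is 1 array per genotype; the longest lines join Ap1b1 with Ap2b1 and Copg1 with Copg2, and no gene reaches 1.2-fold.

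Other genes of these pathways were listed from general knowledge of coat assembly and cargo, with earlier results of these data known. For comparison, 50.1% of all genes above the filter were higher by any amount and 45.2% lower. Among the partners of the COPII coat, the exit site scaffolds and cargo receptors, 15 of 19 measured genes were higher and 3 lower. Of the 19, 17 were above the filter. The median difference of the 19 was 0.08, or 0.03 with probe sets averaged. Ergic2, which encodes a cycling membrane protein of the ER and Golgi, had 9.66 in WT against 9.81 in P4H-TM KO. Its other probe sets, however, differed by -0.02 at a similar signal and by 0.01 at a lower one. Rab1b, a GTPase gene of ER export, had 8.95 and 9.07 on its only probe set. The lowest above the filter were Ergic1, at -0.08 and with 0.13 on a dimmer probe set, and Tfg, at -0.01. None of the 19 reached 1.2-fold. Genes of the unfolded protein response, a list added for context, also act in the ER. They were higher in 14 of 16 cases, with a median of 0.185, while the COPII coat itself had -0.015. Among regulators and cargo receptors of COPI, 10 of 18 were higher and 8 lower, with a median of 0.015. Tmed3 and Tmed10, which encode p24 cargo receptors, had 0.18 and 0.10, though a probe set of Tmed3 below the filter had -0.30. Arfgap3 and Arfgap2, which encode activators of ARF GTP hydrolysis, had -0.11 and -0.07.

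Among 29 partners of clathrin vesicles, 12 were higher and 14 lower, with a median of 0. Fcho2, which starts clathrin pits, had 0.12, and Dnm2, the widely expressed dynamin that cuts vesicles free, had 0.08, as did the AP-2 kinase gene Aak1. Another probe set of Dnm2, equally bright, had 8.38 on both arrays, and a dimmer one differed by -0.13, while those of Aak1 above the filter ran from -0.05 to 0.08. Hip1, which links clathrin to actin, had 8.31 in WT against 7.97 in P4H-TM KO, a difference of -0.34, but its probe set next in brightness had 7.77 and 7.78. Reps1, whose product joins endocytosis to Ral signalling, had -0.20. Among 27 other adaptor subunits, 13 were higher and 12 lower, with a median of 0. Numb, which binds AP-2 and Notch, had 0.19, and Hgs, which sorts ubiquitinated cargo on endosomes, had 0.10. Ap4m1, a subunit of AP-4, had -0.24, and Stam2, a partner of Hgs, had -0.11, with 0.13 on a dimmer probe set.

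Receptors that such vesicles carry were lower in 9 of 14 cases, with a median of -0.04. Of the 14, 12 were above the filter, and 45.2% of all genes above it were lower. The transferrin receptor gene Tfrc had 11.44 in WT against 11.18 in P4H-TM KO, a difference of -0.26. Sorcs1, a sorting receptor gene, had -0.39, at 6.70 in WT and, below the filter, 6.31 in P4H-TM KO. Its dimmer probe sets, however, had 0.05 and 0.23. Igf2r, which encodes the cation-independent mannose 6-phosphate receptor, was the highest, with 9.30 and 9.53 and a difference of 0.23, and Lrp1, a receptor of the family that Dab2 binds, had 0.08. Lrp2, a receptor that Dab2 carries in absorptive epithelia, was below the filter on both arrays, at 5.37 and 5.06.

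Promoter sequences were found for 42 of the 45 listed genes, as 300 bases around each annotated start, and are credited to RefSeq on GRCm38.p6. The letters ACGTG, the core of the hypoxia response element and a part of the longer E-box letters CACGTG, were sought on both strands. They stood in the promoter of 25 of the 42 genes, or 59.5%, against 29.6% of measured genes above the filter and 21.8% of all genes in the table. By sequence, 57.4% of the members' promoters and 19.6% of all promoters of this length held them. The letters include the pair CG, and these shares were not matched for base composition, so they do not show a preference for the hypoxia response element. The E-box letters CACGTG stood in the promoter of 14.3% of the members, against 11.8% of measured genes above the filter and 8.09% of all genes in the table. The share with ACGTG was 8 of 10 genes for COPII, 6 of 8 for COPI and 6 of 8 for the other clathrin adaptors, and 1 of 5 for AP-2. The 24 measured members with these letters had a median difference of 0.05, with 17 higher in P4H-TM KO, and the 17 without them had -0.01, with 7 higher. Over all genes above the filter the median was 0.01 both with and without the letters, and 51.2% and 50.1% were higher, so no such split was seen beyond this short list. The ER stress response element, CCAAT followed after 9 bases by CCACG on either strand, stood in none of the members' promoters and in 0.119% of all promoters. An element so rare would seldom occur in a list this short, so its absence says nothing about the members. A match describes letters and does not show a bound factor.

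The promoters of Dab2 and Sh3d19 are shown because of the 44 members only these 2 passed 1.2-fold, and the capitals mark ACGTG or its reverse complement. Dab2 has another annotated start, not shown, whose promoter lacks the letters. Both sequences are on the plus strand, at chr15:6386498-6386797 for Dab2 and chr3:85970868-85971167 for Sh3d19.
Dab2: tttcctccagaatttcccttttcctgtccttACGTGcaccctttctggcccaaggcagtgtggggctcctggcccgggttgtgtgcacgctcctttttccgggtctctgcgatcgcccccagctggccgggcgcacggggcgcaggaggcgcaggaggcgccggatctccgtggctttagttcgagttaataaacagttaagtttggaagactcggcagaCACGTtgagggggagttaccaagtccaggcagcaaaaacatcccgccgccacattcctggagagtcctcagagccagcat
Sh3d19: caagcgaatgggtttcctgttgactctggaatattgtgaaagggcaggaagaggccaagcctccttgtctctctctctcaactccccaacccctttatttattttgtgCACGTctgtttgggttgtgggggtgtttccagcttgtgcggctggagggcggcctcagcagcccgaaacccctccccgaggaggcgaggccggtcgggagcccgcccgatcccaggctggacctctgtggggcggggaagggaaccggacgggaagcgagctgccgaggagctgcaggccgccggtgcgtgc

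Copb2, Snap91 and Arcn1 share chromosome 9 with P4htm and are 99, 136 and 382 genes away from it, counting genes above the filter. Each differed by 0.04 between P4H-TM KO and WT, so no coat gene on that chromosome stood apart.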

How the data were processed

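Total RNA of cortical tissue, pooled from 4 mice per genotype, was labelled with biotin and hybridized to Affymetrix mouse genome arrays. The authors used the GeneChip Operating System to quantify the scans and GenePattern to normalize them; RMA is named in the processing notes of the submitters, its version being not given in the sources used here. What was deposited is 1 log2 value per probe set and array, written with 2 decimals, and the median was 6.38 on the WT array and 6.39 on the other. RMA makes arrays alike in distribution, so a shift common to all genes would not show, and it compresses differences of dim probe sets. The number of arrays limits the precision.

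Of 45101 probe sets, 34945 carry 1 gene symbol in the platform annotation and are not controls; symbols were checked against the RefSeq table of GRCm38.p6. Each gene took its brightest probe set. Counts used genes with a mean of at least 6.385 and thresholds of 1.2-fold, 1.1-fold and 1.5-fold. The members and lists were chosen with earlier results of these data known, and no test or p-value was computed. Named genes were P4htm, members past 1.2-fold or with a probe set past 1.5-fold, the 2 highest and 2 lowest of each complex and pathway list, paralog pairs, and the highest and lowest marker of each list above the filter. Other members, Lrp2 and the unfolded protein response list were named outside this rule. Alternatives averaged probe sets, left out those marked as matching several transcripts, centred arrays, removed the intensity trend with loess (span 0.3), and varied filters, thresholds and the mean. The marks were the suffix _a_at, for several transcripts of the same gene, and the suffixes _s_at and _x_at, which can match other genes. Single genes counted as stable within the pooled SD between all probe sets of a gene, 0.147, medians within that SD over the square root of the list size, and counts within 1.5 times. Counting was tested on simulated data. Calculations ran in Python 3.11.15 with pandas 2.3.3 and numpy 2.4.6, loess in statsmodels 0.14.6, and plots in matplotlib 3.10.9.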

Additional observations from a re-analysis of the deposited data

How the results depend on the processing

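With 1 array per genotype, leaving out a replicate was not possible, and no paired analysis was possible because each genotype has 1 array and no test was made. The 2 members at least 1.2-fold higher were 1 with probe sets averaged, 1 without marked probe sets, 1 at 1.5-fold, 6 at 1.1-fold and 1 with a filter at the 70th percentile; on averaging, Dab2 fell below the signal filter, at a difference of 0.3975, and Sh3d19 stayed, at 0.3175. The 0 members lower by 1.2-fold were 1 at 1.1-fold, and 0 under the other settings. Of all genes above the filter, the 340 higher and 215 lower numbered 74 and 6 at 1.5-fold, 1328 and 1105 at 1.1-fold, 749 and 894 without a filter and 124 and 80 at the 70th percentile, since these settings change the threshold or the genes counted.

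Of 80 alternatives to medians, 73 stayed within their bound. The median of all members, 0.035, was 0.01 without marked probe sets, which left 39 members. That of the other clathrin adaptors, 0.13, was 0.22 as a mean and 0.06 without Dab2 and Sh3d19, chosen after their values were seen. That of COPII partners, 0.08, was 0.03 with probe sets averaged, 0.045 without marked probe sets and 0.0458 as a mean, and that of cargo receptors, -0.04, was 0.005 without marked probe sets; the cause was not tested. Of 175 alternatives to single genes, 165 stayed within the bound, and the exceptions were P4htm, Dab2, Sh3d19, Copz1, Copa and Clta. Neither Dab2 nor Sh3d19 changed sign under any of the 4 settings run for genes.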
